A study of Schmidtea polychroa with 24 samples.

Results

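The genes described here form a group of 150 assembler genes of the freshwater planarian Schmidtea polychroa whose mean level was highest at 24h, 32h or 48h after cocoon deposition and low before and after. They were taken from 22365 assembler genes by their deposited TMM-scaled values, summed over the isoforms of each gene. The 60 most abundant genes were set aside, and a gene then had to reach a mean of at least 10 units at its peak and at least 4 times its mean at 4h, at 96h and at 168h. Of the 371 genes that passed, the 150 with the highest ratio of the peak to the largest of these 3 means were kept. The values of 4h, 24h, 32h, 48h, 96h and 168h thus chose the genes and are given below as a description. The levels at 72h and 120h entered the choice only in that they could not exceed the peak.

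RNA came from whole cocoons of a sexual laboratory population, kept at 20 °C until they were taken. The groups are 4h, 24h, 32h and 48h after deposition, followed by 72h, 96h, 120h and then 168h. Capsules of every group were cleaned briefly in dilute bleach before lysis, the labels give no other treatment or genetic change, and the study asked how expression changes in the first days of development, with 4h as its starting point. Each time had 3 libraries of polyA RNA, described as biological replicates, and each library pooled 4 whole cocoons with all embryos and yolk cells in them. In such bulk samples fewer cells of a type, or fewer embryos, cannot be told apart from less RNA per cell. The libraries held 1599902 to 9567933 estimated counts, so a count of 0 in one library allows up to 3 counts, or 0.314 to 1.88 CPM. These limits cover counting error only. Between 9299 genes, in 32h replicate 2, and 19059 genes were listed above 0 in a library.

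Planarian embryos develop in an unusual way. Zygotes and a large number of yolk cells are laid together in one capsule, and the first blastomeres divide loosely among the yolk cells instead of forming a compact embryo. The cells then gather into an embryo with a temporary embryonic pharynx, which swallows the remaining yolk, and the definitive organs are built later. A short window of expression in the first days therefore falls in the time when cleavage and the first assembly of the embryo take place. The identifiers are those of a transcript assembly and the files do not pair them with gene names, so no function can be attached to a gene, none of the planned gene lists could be matched, and markers of embryo, yolk or other cells could not be read. Of the genes, 3 are named by their identifiers under a rule given with the methods, and others are called by their rank in the ratio that chose them.

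The name of the group holds only in part. Of the 150 genes, 85 had their highest mean at 32h and 65 at 48h, and none (0) at 24h. The means hid a division between libraries of one time. For the median gene, 63.0% of the summed signal of its 3 peak-time libraries came from a single library, and for 32 genes it was over 90%. Among 1336 other genes with a peak at 32h or 48h and a mean of at least 10 units, the median was 45.5%. The peak values behind these shares also ranked the genes, so the difference is a description. Each of the 150 genes had over 50% of its peak sum in 1 library. Only 3 of the 150 genes had all 3 libraries of their peak time above all 9 libraries of 4h, 96h and 168h. Over all 22365 genes, 2.86% met this at 32h or at 48h, and since the rule used these values nothing is read from the count.

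Grouped by peak time and by the 48h library with the highest value, the genes fell into 3 sets. These sets were made after the values were seen and describe the libraries, so no test was run on them. The first, called the 32h set, holds the 85 genes with a peak at 32h. The second holds 11 genes with a peak at 48h that were highest there in replicate 2. The third holds 54 genes with a peak at 48h that were highest there in replicate 1 or replicate 3. The heatmap of all 150 genes shows the sets library by library.

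**Figure D1:**
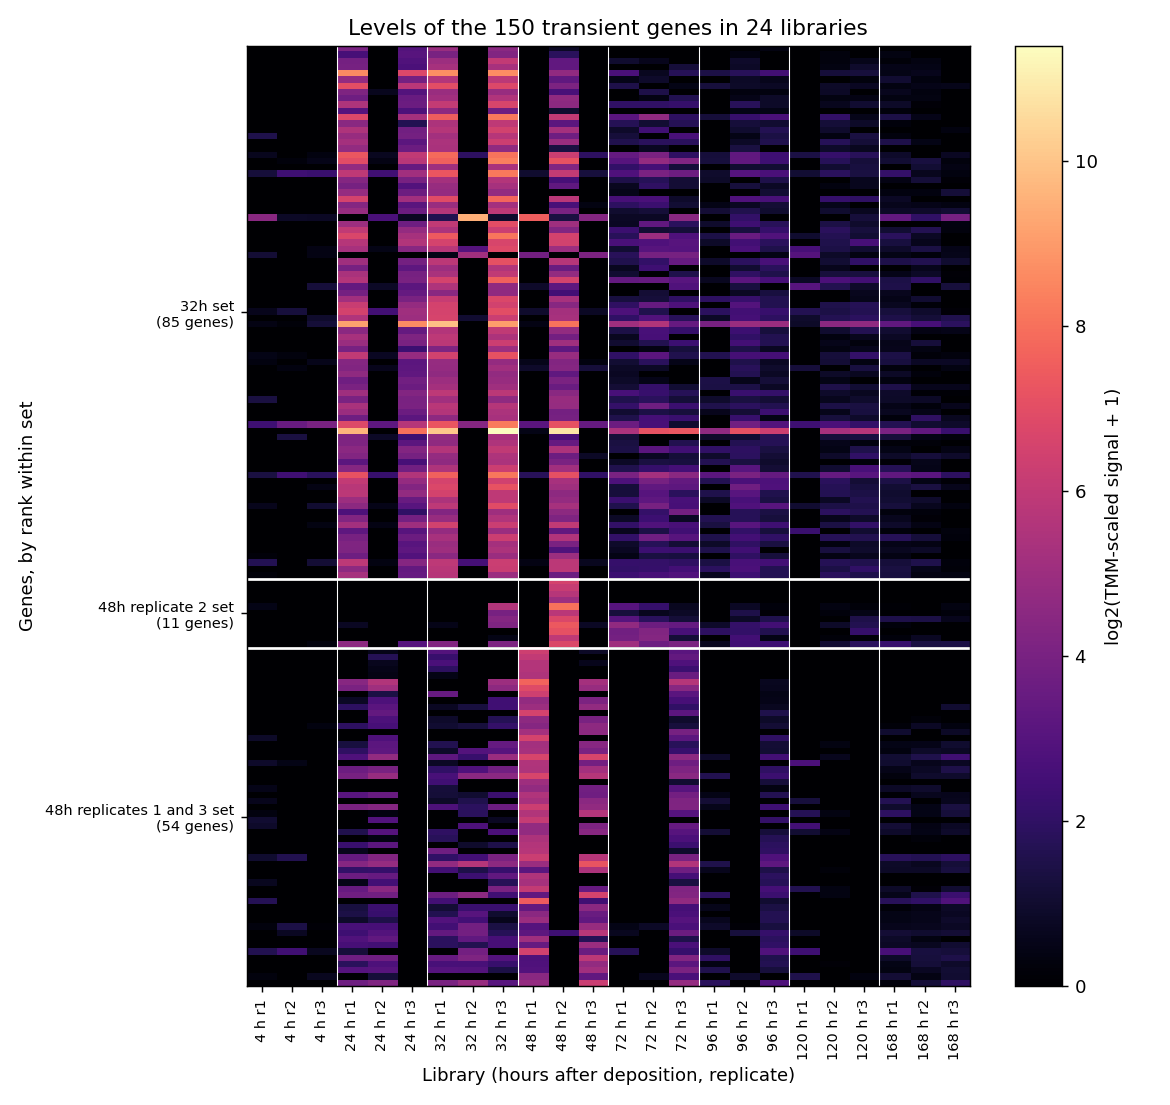
Levels of the 150 genes (rows, by set and rank) in the 24 libraries (columns, by hours after deposition and replicate, r), as log2(TMM-scaled signal + 1). The 85 genes of the 32h set are bright in replicates 1 and 3 of 24h and 32h and in replicate 2 of 48h and mostly dark in the other libraries of these times, while the 54 genes at the bottom are bright in 48h replicate 1, in many rows in 48h replicate 3, and in 72h replicate 3.

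The 32h set was already present at 24h, but in 2 of the 3 libraries. Its median level was 26.1 units in 24h replicate 1, 0 units in 24h replicate 2 and 12.3 units in 24h replicate 3. At 32h the median was 43.6 units in replicate 1, 0 units in replicate 2 and 59.7 units in replicate 3. At 48h it was 0 units in replicate 1, 21.1 units in replicate 2 and 0 units in replicate 3. So 1 library at 24h, 1 library at 32h and 2 libraries at 48h were at 0 for most of the set, next to libraries of the same time that were well above it.

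The same split ran through nearly every gene of the set. Both 24h replicates 1 and 3 were above 24h replicate 2 for 83 of the 85 genes, both 32h replicates 1 and 3 were above 32h replicate 2 for 83, and 48h replicate 2 was above both other 48h libraries for 82. All 3 orders held together for 82 genes. Not a single count was assigned to 69 of the 85 genes in replicate 2 of 24h, to 78 in replicate 2 of 32h, and to 73 in each of replicates 1 and 3 of 48h. In 24h replicates 1 and 3 the genes without a count numbered 2 and 1, in 32h replicates 1 and 3 they numbered 0 and 1, and in 48h replicate 2 they numbered 2. Of all 22365 genes, 14425 were listed above 0 in 24h replicate 2, 9299 in 32h replicate 2, 15455 in 48h replicate 1 and 15038 in 48h replicate 3. The number was 12936 and 13033 in 24h replicates 1 and 3, 14939 and 12472 in 32h replicates 1 and 3, and 15980 in 48h replicate 2. The orders of libraries were not counted over all genes.

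The depths of these libraries overlapped. The estimated totals ran from 1868442 to 3475563 counts over the 24h, 32h and 48h libraries that held most of the set, and from 2308513 to 3503469 counts over those that did not. Replicate 2 of 32h also stood apart in other ways, with the fewest genes listed above 0 and 43.1% of its counts in its most abundant gene. The share of the most abundant gene was 36.8% in 48h replicate 1, 39.0% in 48h replicate 2 and 33.7% in 48h replicate 3, and 15455, 15980 and 15038 genes were listed above 0 there. The part of library composition in the split was not tested.

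The most abundant gene of the group shows the split at full size. The gene ranked 111, with 15085 counts in all, had a mean of 1261 units at 32h, where its libraries held 1095, 0 and 2687 units. It was at 789, 0 and 253 units in the 24h libraries and at 0.393, 1746 and 0 units in the 48h libraries, each in replicate order. At 4h all libraries were at 0. At 72h it held 41.3, 138 and 157 units, and at 168h between 3.81 and 15.7 units. The libraries with the gene and those without it did not overlap at 24h, 32h or 48h, and by 72h all 3 libraries held it at an intermediate level.

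Genes of the 32h set also differed in how much was left at 48h, as 2 examples show. The gene ranked 19 was at 394, 0 and 108 units at 24h, at 410, 0 and 400 units at 32h and at 0, 24.9 and 0 units at 48h. In its best 48h library it was thus far below every 32h library that held it. The gene ranked 80 was at 561, 0 and 408 units at 24h, at 958, 0 and 538 units at 32h and at 0.347, 266 and 0 units at 48h. In the set as a whole, 71 of the 85 genes had a higher mean at 24h than at 48h, and 14 had the reverse order or a tie. The mean at 24h rests on 2 libraries and the mean at 48h on 1 library, so this order of means is also an order of how many libraries held the set.

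A pair of genes in the 32h set ran against it. The gene ranked 54 held 721 units in 32h replicate 2, 2.09 units in replicate 1 and 0.920 units in replicate 3, and it held 181 units in 48h replicate 1. The gene ranked 65 held 34.1 units in 32h replicate 2, 0.400 units in replicate 1 and 0 units in replicate 3. At 32h and 48h both had their signal mainly in libraries where the rest of the set was at or near 0, and the 32h peak of each came almost wholly from 1 library. At 72h the gene ranked 65 also held 14.5 and 14.4 units in replicates 2 and 3, which held the rest of the set at a low level.

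**Figure D2:**
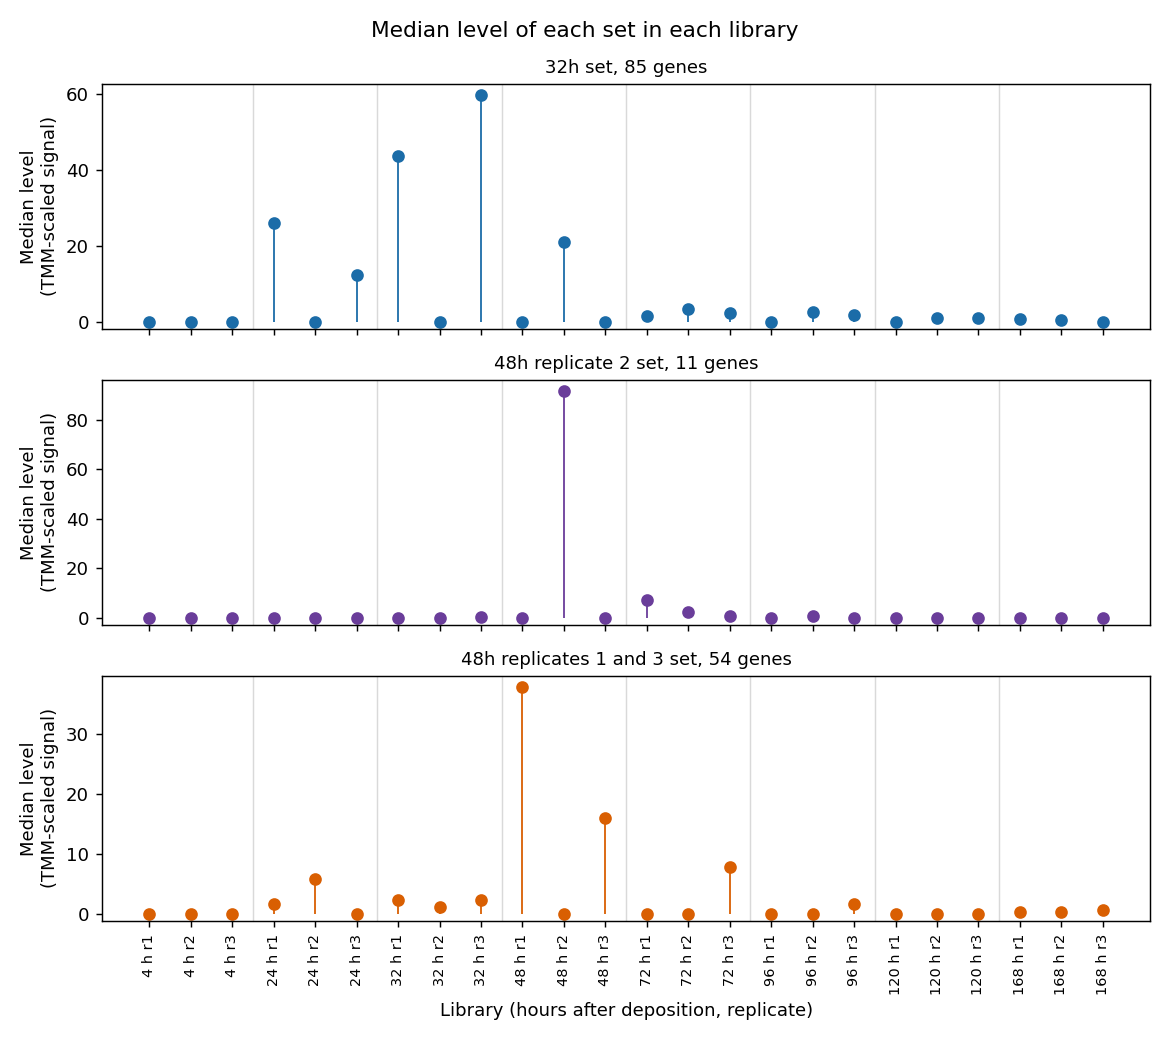
Median level over the genes of each set (TMM-scaled signal, linear axis from 0) in each of the 24 libraries, by hours after deposition and replicate (r). The 32h set stands at 26.1, 12.3, 43.6, 59.7 and 21.1 units in replicates 1 and 3 of 24h, replicates 1 and 3 of 32h and replicate 2 of 48h, and at 0 in the other 24h, 32h and 48h libraries.

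The 11 genes of the second set had their 48h level almost wholly in replicate 2. Their levels there ran from 30.7 to 257 units, with a median of 91.5 units. In 48h replicate 1 all 11 were without a count, and in 48h replicate 3 this was so for 10, the remaining gene being at 0.701 units. For 4 of the 11 genes, no count was assigned in any of the other 23 libraries. These 4 are ranked 1, 3, 5 and 9 and held 91.5, 71.4, 52.4 and 30.7 units in that library. Their ratio has no upper bound, because their levels at 4h, 96h and 168h were all 0, and they head the ranking for that reason.

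Some of the second set were seen at neighbouring times. The gene ranked 11 held 257 units in 48h replicate 2, 46.8 units in 32h replicate 3, and 7.28, 3.46 and 0.622 units in the 72h libraries. In 32h replicate 3, 5 of the 11 genes were at 5 units or more, and in 72h replicate 1 or 2 this was so for 6. These libraries also held the 32h set. So did 24h replicate 1 and 32h replicate 1, at medians of 26.1 and 43.6 units, but each of them had 9 of the 11 genes at 0 counts.

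The third set had the opposite libraries at 48h. Its median level was 37.8 units in 48h replicate 1, 0 units in 48h replicate 2 and 16.0 units in 48h replicate 3, and 53 of the 54 genes had no count in 48h replicate 2. Of the 54 genes, 40 were highest in replicate 1 and 14 in replicate 3. At least 5 units were reached in both of these libraries by 37 genes, while 15 genes were under 1 unit in replicate 3. Over the whole group of 150, 88 genes reached 5 units in 48h replicate 2 and 57 in 48h replicate 1 or 3, and only 1 gene did both.

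**Figure D3:**
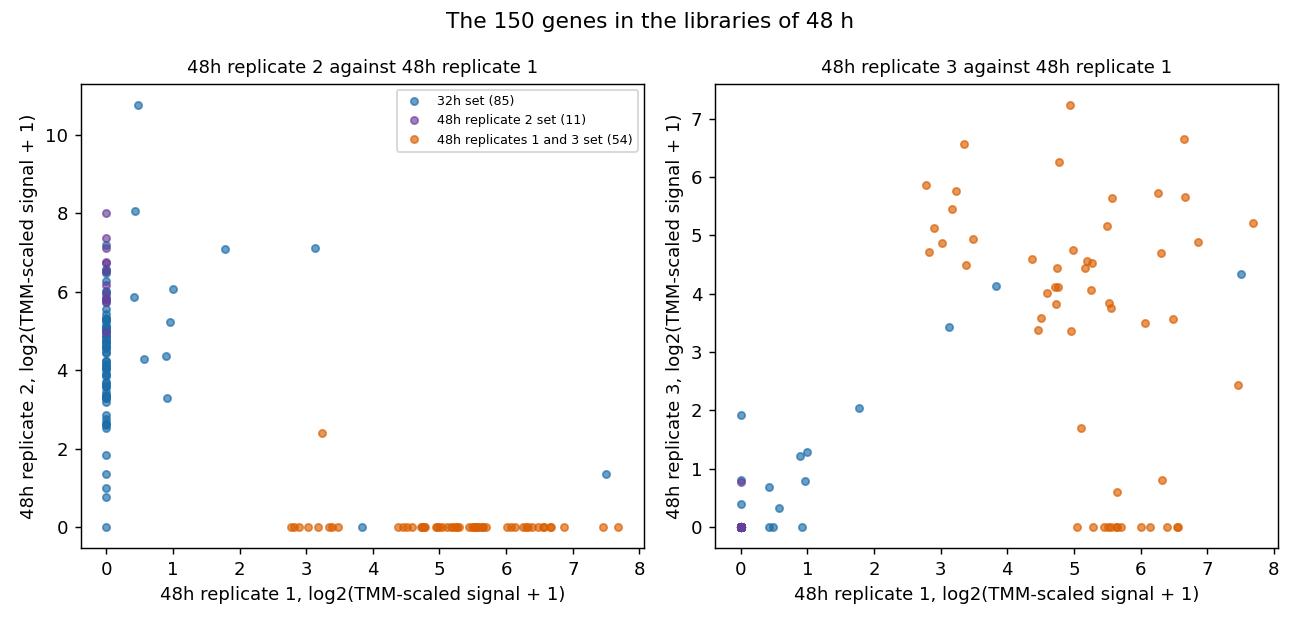
Each point is 1 of the 150 genes, coloured by set, with its level in 48h replicate 1 (x axis) and in 48h replicate 2 or 48h replicate 3 (y axis), as log2(TMM-scaled signal + 1). Against replicate 2 the points lie along the 2 axes, since 1 gene of 150 reached 5 units in replicate 2 and in replicate 1 or 3, while 37 of the 54 genes of the third set reached 5 units in both replicates 1 and 3. The same was not counted over all genes.

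Outside 48h the third set followed libraries in a pattern of its own. At 24h the median was 1.64 units in replicate 1, 5.81 units in replicate 2 and 0 units in replicate 3, where all 54 genes had no count. At 32h the medians were 2.31, 1.24 and 2.33 units in replicates 1 to 3, but single genes differed between these libraries, and 15, 25 and 20 of the 54 genes had no count in them. The gene ranked 10, for example, held 0, 0 and 31.3 units at 32h. At 72h the medians were 0 units in replicate 1, 0 units in replicate 2 and 7.80 units in replicate 3, and replicate 3 was above both others for 53 of the 54 genes. The 72h level of this set therefore came from 1 library, the shallowest of 72h with 1617797 counts.

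The highest ranked genes of the third set show both of its forms. The gene ranked 2 held 79.4 units in 48h replicate 1 and 0.746 units in 48h replicate 3, with 6.82 units in 32h replicate 1 and 7.73 units in 72h replicate 3. The gene ranked 10 held 205 units in 48h replicate 1 and 36.1 units in 48h replicate 3, with 20.5 and 46.5 units in 24h replicates 1 and 2 and 49.9 units in 72h replicate 3. The first was nearly limited to 1 library of 48h, while the second was also present in 2 libraries of 24h. Both were at 0 in 48h replicate 2 and in 72h replicates 1 and 2.

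Only 3 genes had all peak-time libraries above all 9 libraries of 4h, 96h and 168h and enough counts to be tested, and these are named. TRINITY_DN235316_c0_g2, ranked 62, held 53.6, 7.14 and 112 units in the 32h libraries, against 0, 0 and 0.336 units in the 4h libraries. Its mean was 57.5 ± 52.4 units at 32h and 0.112 ± 0.194 units at 4h (SD, n = 3 each). At 24h it held 39.2, 0.391 and 20.7 units and at 48h 0, 31.1 and 0 units, so the order of libraries was that of the 32h set. The lowest 32h library, replicate 2, was 12 counts deep.

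TRINITY_DN238180_c0_g2, ranked 109, was the most abundant of the 3 and differed in being present at 4h. It held 154, 19.6 and 304 units in the 32h libraries, against 4.23, 10.8 and 15.4 units in the 4h libraries. The ratio of pooled CPM at 32h to 4h was 12.8, with an exact 95% interval of 10.7 to 15.4 that covers counting error only. Set beside the spread between libraries, edgeR put this rise at 4.08 ± 1.16 (log2, SE) and did not call it (adjusted p = 0.0517). Of the alternatives, 9 left the rise uncalled and 3 called it, among them DESeq2 (adjusted p = 0.00299). The values at 32h and 4h also chose the gene. At 96h it held 0, 13.2 and 6.78 units. Its mean was 6.66 ± 6.60 units at 96h and 159 ± 142 units at 32h (SD, n = 3 each).

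TRINITY_DN222926_c1_g1, ranked 126, belongs to the third set. It held 8.40, 4.25 and 52.99 units in the 48h libraries, against 0, 0.641 and 0 units in the 4h libraries. Its mean was 21.9 ± 27.0 units at 48h and 0.214 ± 0.370 units at 4h (SD, n = 3 each). It is the 1 gene of its set with counts in 48h replicate 2. At 32h it held 9.75, 13.5 and 2.39 units, so 2 of the 32h libraries were above 2 of the 48h libraries and the peak at 48h rests on replicate 3.

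**Figure D4:**
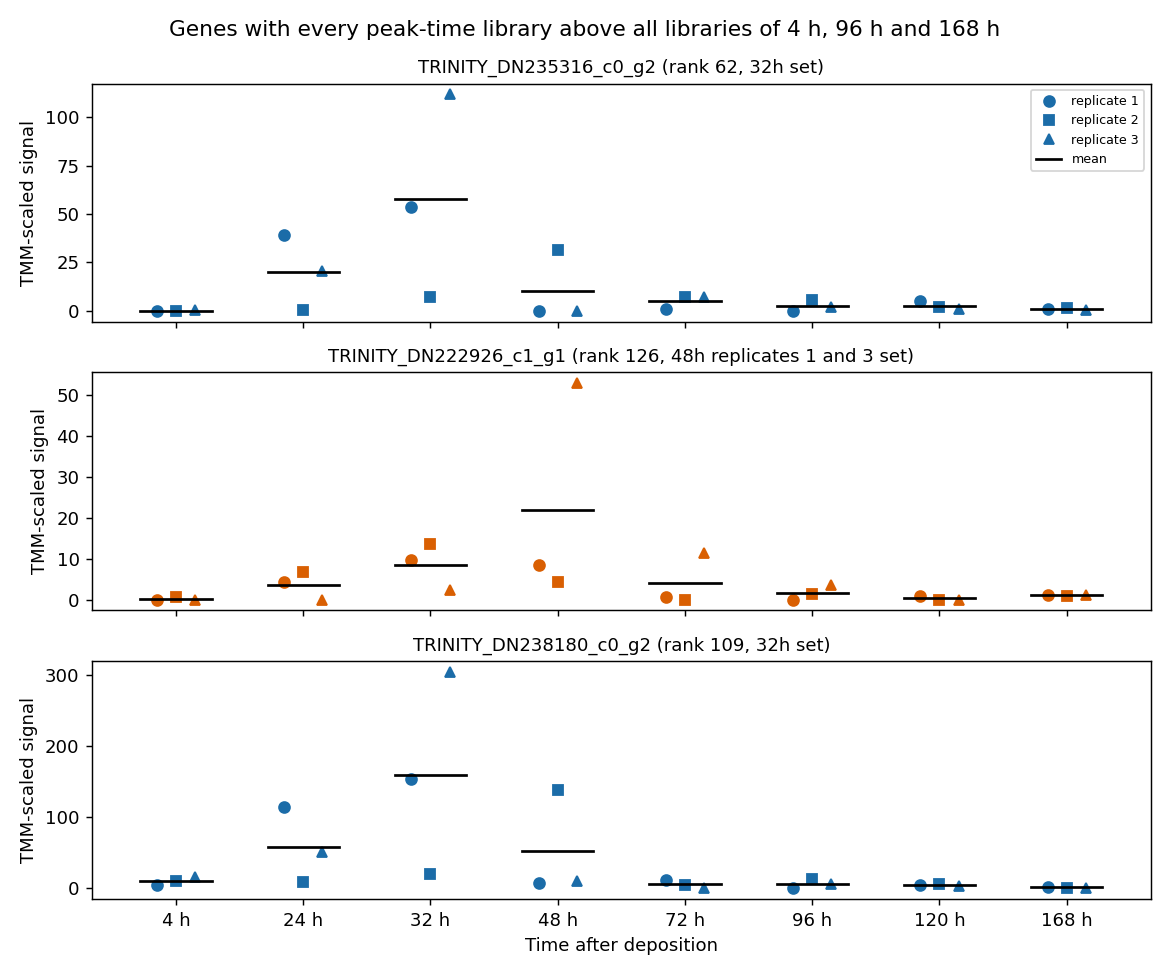
Level (TMM-scaled signal, linear axes that differ between panels) of the 3 named genes at each time, with 1 symbol per library (circle, square and triangle for replicates 1, 2 and 3) and a black line for the mean. At 32h TRINITY_DN238180_c0_g2 spreads from 19.6 to 304 units between libraries of one time, against 4.23 to 15.4 units at 4h.

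At 4h the group was close to absent. Of the 150 genes, 109 were listed at 0 in all 4h libraries, and 126 had at most 3 counts over the 4h libraries together. The values at 4h entered the choice, so this describes the group and adds no evidence for it. Per-gene tests of the same contrasts are given for completeness. An edgeR quasi-likelihood test on counts could be run for 138 of the 150 genes, since 12 had too few counts. It called 83 genes higher at their own peak time than at 4h (Benjamini-Hochberg adjusted p under 0.05), 58 at 32h and 25 at 48h. Over all 15587 genes tested, 2.03% were called higher at 32h and 4.56% at 48h, and nothing is read from the members' count. No gene was called (0) without 4h replicate 1, 2 or 3, 9 were called without 32h replicate 1 and 11 without 32h replicate 3. Over all genes, the fits without 4h replicates 1, 2 and 3 called 111, 33 and 31 higher at 32h and 179, 91 and 82 at 48h. Those without 32h replicates 1 and 3 called 85 and 64 higher at 32h and 300 and 367 at 48h. Leaving out a library also changed the low-count filter, which kept 17407, 16901, 17365, 17344 and 17522 genes in these fits. DESeq2 called 111 genes, and limma-trend on the normalised table called 2. Over all 15587 genes, DESeq2 called 1275 higher at 32h and 1972 at 48h, and limma-trend called 170 and 238.

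The return by 96h was called for fewer genes. Lower at 96h than at their own peak time were 22 genes (edgeR, adjusted p under 0.05), 19 against 32h and 3 against 48h. Of all genes tested, 11.1% were called lower against 32h and 10.8% against 48h. This contrast also chose the genes. The count was 8, 43 and 6 without 32h replicates 1, 2 and 3, 66 without 48h replicate 2, and 1, 3 and 1 without 96h replicates 1, 2 and 3. Over all genes, of which 17202 to 17522 were tested, these fits in the same order called 1052, 1466, 1192, 1685, 1095, 1542 and 825 lower than at 32h. Lower than at 48h they called 1249, 1416, 1258, 1637, 842, 1493 and 431. The median log2 fold change of all genes at 96h against 32h was 0.48 with TMM scaling and 0.69 with DESeq2 size factors, so the scaling itself moves this contrast.

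How much was left at 72h and 120h was bounded by the choice only from above. For the median gene, the mean level was 8.17% of its peak at 72h and 1.01% at 120h. With the median of the 3 libraries in place of the mean, the value at 72h was 2.68%, over genes with a median peak above 0. Among 9464 other genes with a highest mean of at least 10 units, these medians were 34.2% and 52.1%. Between sets, the median at 72h was 6.60% in the 32h set, 4.97% in the second set and 14.1% in the third set, where it rests on 72h replicate 3. At 120h it was 2.10%, 0.483% and 0% in the same order. Ratios with the peak in the denominator are lowered by the choice of genes with a high peak, so the gap to other genes is a description.

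At 72h, 3 genes were above 50% of their peak mean. The gene ranked 65 was at 90.8% of its peak at 72h, and the genes ranked 141 and 145, both of the second set, at 57.4% and 56.3%. The peak mean of each came almost wholly from 1 library. The gene ranked 65 held 0.400, 34.1 and 0 units at 32h, against 2.44, 14.5 and 14.4 units at 72h. At 48h the gene ranked 141 held 0, 60.3 and 0 units, against 14.0, 19.3 and 1.26 units at 72h. The gene ranked 145 held 0, 107 and 0 units at 48h, against 33.0, 11.7 and 15.6 units at 72h. All other genes were under 40%, the next being the gene ranked 146 with 38.7%. At 120h the gene ranked 65 was at 23.7% of its peak, the highest value of the group.

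**Figure D5:**
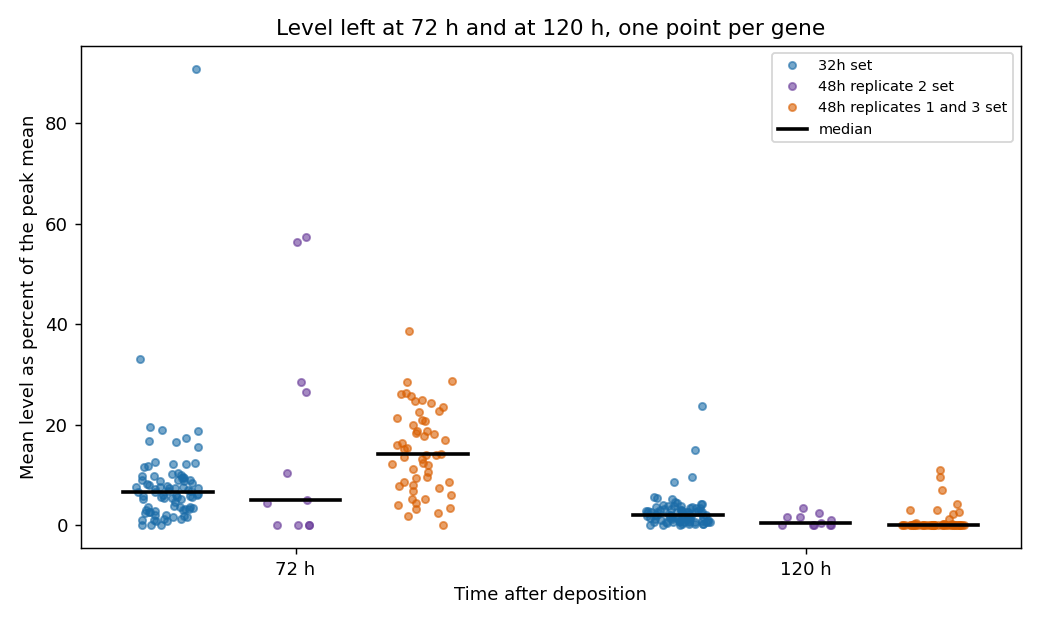
Mean level at 72h and at 120h as a percentage of the gene's own peak mean, 1 point per gene, coloured by set, with black lines at the set medians (points are spread sideways for visibility only). The medians are 6.60%, 4.97% and 14.1% at 72h and 2.10%, 0.483% and 0% at 120h, and 3 genes lie above 50% at 72h.

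Least fixed by the choice is the comparison of 120h with 72h, where the number of genes called differed between tools. edgeR called 0 of the 138 genes tested, where 25 had an unadjusted p under 0.05, all of them lower at 120h. Over all 15587 genes tested, 1.01% were called lower at 120h and 9.71% higher, and 31.7% had an unadjusted p under 0.05. The log2 fold change was below 0 for 127 of the 138 genes and had a median of -2.41, beside -0.04 for all genes tested. Without 72h replicate 3 it was below 0 for 81 of 142 genes tested, with a median of -0.96. With all libraries it was below 0 for 74 of 85 tested genes of the 32h set. The same was so for 7 of 7 of the second set and 46 of 46 of the third. The third set was at a median of 0 units in 72h replicates 1 and 2, while the 32h set was at 1.597, 3.32 and 2.41 units in the 72h libraries. DESeq2 called 15 of the genes lower, where it called 6.01% of all genes lower, and limma-trend called 0, with 4 at an unadjusted p under 0.05. By edgeR, 1 gene was called lower without 120h replicate 1, and 2 were called lower without 48h replicate 2, which shares in the estimate of spread. Over all genes, 2088 of 17504 were called lower without 120h replicate 1 and 166 of 17406 without 48h replicate 2. An unadjusted p under 0.05 was reached by 4 genes without 120h replicate 2 and by 4 without 120h replicate 3. Over all genes, it was reached by 3210 of 17392 and by 3767 of 17335 in these fits.

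By set the medians were unlike, and their difference was not tested. At 120h against 72h, the fold change had a log2 median of -1.81 over the 85 tested genes of the 32h set, with none (0) at an unadjusted p under 0.05. It was -4.01 over 7 tested genes of the second set, of which 3 had an unadjusted p under 0.05. It was -5.85 over 46 tested genes of the third set, of which 22 had an unadjusted p under 0.05. That set was at a median of 0 units in each 120h library, against 0, 0 and 7.80 units in the 72h libraries, and without 72h replicate 3 only 2 of the genes tested in the whole group had an unadjusted p under 0.05. With both 72h replicate 3 and 120h replicate 1 left out, an alternative added after the data were seen, 1 gene had. Over all genes, 4477 of 17478 had without 72h replicate 3, and 6491 of 17528 with both left out. Of the named genes, TRINITY_DN222926_c1_g1 held 0.803, 0 and 0 units at 120h, against 0.604, 0 and 11.4 units at 72h, with a log2 fold change of -4.75 ± 2.29 (SE; edgeR, adjusted p = 0.132). Without 72h replicate 3 the log2 fold change was -0.89 (edgeR, adjusted p = 0.837). The gene was called by DESeq2, at -5.08 (adjusted p = 0.0422), and by edgeR without 120h replicate 1 (adjusted p = 0.0483), and over all alternatives the adjusted p ran from 0.0422 to 0.837.

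The 32h set was unevenly present in the later libraries as well. At 96h its median was 0 units in replicate 1, 2.67 units in replicate 2 and 1.82 units in replicate 3, and 44, 4 and 7 of the 85 genes had no count. At 120h the medians were 0, 1.07 and 1.11 units, with 70, 11 and 9 genes without a count. Replicate 1 was the shallowest library at both times, with 1599902 and 1758238 counts against at least 3334736 in the others, so at these low levels a count of 0 there allows more than in its neighbours. At 72h the set was present in all 3 libraries, with medians of 1.597, 3.32 and 2.41 units.

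The choice could be repeated without part of the libraries and read in the part left out. With the libraries of replicate number 1 set aside, the rule took 150 genes, and in the 8 libraries set aside 99 of them (66.0%) again had a value of at least 10 units at 24h, 32h or 48h that was the highest and at least 4 times those of 4h, 96h and 168h. Among 10245 other genes that reached 10 units in these libraries, 8.48% did so. With number 2 set aside it was 67 of 150 (44.7%) beside 3.11%, and with number 3 set aside 71 of 150 (47.3%) beside 5.88%. The 3 lists shared 105, 106 and 88 genes with the group. In each list a part of the genes did not show the pattern in the libraries set aside. Library scaling and the assembly used all 24 libraries, so the parts are not fully separate.

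Some features of the assembly also describe these genes, but they are not fully separate from the rule. The signal that the rule used is scaled by length. The 150 genes had a median of 354.5 counts over all libraries, and whether the number of isoforms follows the counts was not tested. The differences from other genes are thus a description. A single isoform was assembled for 91 of the 150 genes (60.7%), beside 28.001% of the 9464 other genes with a highest mean of at least 10 units, and the largest number was 12. This was so for 51 of 85 genes of the 32h set, 7 of 11 of the second and 33 of 54 of the third. The main isoform had a median effective length of 0.746 times that of the median transcript, from counts per unit of signal, beside 0.916 for the other genes. By set this was 0.699, 1.08 and 0.777 in the order given above. Of the 59 genes with more than 1 isoform, 38 had the same main isoform in every peak-time library with a value above 0, and the main isoform held a median of 60.8% of the peak signal.

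Some genes share an assembly read cluster, where reads of near-identical copies may be divided between them, so their single values are uncertain. This concerned 13 genes in 6 clusters, 8.67% of the group, counting only clusters shared within it. Among the 9464 other genes with a highest mean of at least 10 units, 29.3% shared a cluster with another such gene. That pool is larger, which gives more partners to share with, so nothing is read from the difference. In all 6 clusters the genes sharing one fell in the same set. The largest held 3 genes of the third set, ranked 10, 24 and 106, with 205, 30.8 and 66.2 units in 48h replicate 1, none (0) in 48h replicate 2 and 36.1, 26.0 and 10.3 units in 48h replicate 3. Another held the genes ranked 5 and 9, both seen in 48h replicate 2 alone. Genes of a cluster may share reads, and the sets were made from these same values. The clusters therefore add no separate evidence for the division of libraries.

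The edge of the group was not sharp. The last genes kept, ranked 148 to 150, had ratios of 11.9, 11.9 and 11.8, and the first left out, ranked 151 to 153, had ratios of 11.8, 11.7 and 11.6. Outside the group, the 5 genes most like its median profile had a Pearson correlation of 0.985 to 0.992 over the 8 time-point means of log2(signal + 1), which share libraries and scaling. The closest had means of 0, 5.75, 9.002, 5.69, 1.28, 0.876, 0.201 and 0.258 units from 4h to 168h, below the minimum of 10 units. Its highest library was replicate 1 of 32h, while those of the next 4 were replicates 3 and 2 of 48h and, for 2 genes, replicate 2 of 32h. A median profile over the 3 sets thus matched genes of unlike libraries.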

How the data were processed

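Libraries were stranded polyA preparations sequenced in pairs, per the labels' protocols, and the tools named in the submitters' processing notes are FastQC 0.11.2, Trimmomatic 0.32, limma 3.54.2, edgeR 3.40.2, R 4.2.2 and RSEM, with no version for the last. An aligner is not given in the sources used here. Deposited were unnormalised RSEM expected counts per transcript, per the file headers. The second deposited table holds a TMM-scaled signal per transcript. What unit was scaled is not stated, and the value per count differs between transcripts of one library, so it is also scaled by length.

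Both tables held 60921 transcripts and were summed per assembler gene. Ties in the ratio were ordered by peak mean. The members, sets and lists were chosen with earlier results of these data known. Counts were rounded to whole numbers, filtered with filterByExpr and fitted in 1 model to all 24 libraries (edgeR 4.0.16 in R 4.3.3, TMM, glmQLFit, glmQLFTest), with Benjamini-Hochberg adjustment over all 15587 genes tested. Standard errors were back-calculated from the F statistic. Where nothing says that cocoons of a library came from separate parents, p-values measure the spread between these libraries. Libraries of one time differed by at least 8.16 per degree of freedom in a chi-square test of counts, more than counting noise gives, so none was the same library deposited again. Repeat preparations from the same cocoons would not be seen by this test.

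Identifiers were printed for members with all 3 peak-time libraries above all 9 libraries of 4h, 96h and 168h and enough counts to be tested: the 2 with the largest log2 fold change at the peak against 4h, then up to 2 of the rest with the largest fall to 96h. A further condition of 10 units in each peak library left 1 candidate and was dropped, as the rule provides, which left 3. As alternatives, no filter, an adjusted p under 0.01, limma 3.58.1 (trend, log2(signal + 1)), DESeq2 1.42.0, edgeR with DESeq2 size factors, a replicate block, leaving out each library and other forms of the rule were run. The test was tried on simulated data.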

Additional observations from a re-analysis of the deposited data

How the results depend on the processing

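The number of genes passing the rule, 371, was 227 with a peak of at least 20 units, 723 with at least 5 units and 205 with at least 8 times, and ran from 293 to 599 with libraries left out. The highest number came without all libraries of replicate number 2, and it was 596 without 48h replicate 2 alone. With the median of 3 libraries in place of the mean, 114 of the 150 genes still passed, among them 83 of 85 of the 32h set, 1 of 11 of the second and 30 of 54 of the third. Without 48h replicate 1, 26 of the 54 genes of the third set still passed, and without 48h replicate 2, 1 of 11 of the second. The median level left at 72h was 2.68% of the peak with medians of libraries, over genes with a median peak above 0. Genes called higher at their peak than at 4h, 83, numbered 0 at an adjusted p under 0.01, 2 with limma-trend, 43 without a low-count filter, and 0 to 102 with a library left out. Genes called lower at 96h, 22, numbered 1 at an adjusted p under 0.01 and 1 to 66 with a library left out. For 120h set against 72h, 15 genes were called by DESeq2 in place of 0, and 0 to 1 with a 72h or 120h library left out. The log2 fold change of TRINITY_DN238180_c0_g2 at 120h against 72h, -0.65, was 0.0052 with limma-trend and ran from -1.0004 to 0.18 with a 72h library left out, the highest without replicate 1. The cause of these shifts was not tested. At 32h against 4h, 58 of the 150 genes were called with all libraries. The number was 8 without 72h replicate 1, 6 without 96h replicate 1 and 74 without 120h replicate 1, libraries outside that contrast. Over all genes tested, 317 of 15587 were called higher with all libraries. The same fits called 154 of 17281 without 72h replicate 1, 147 of 17452 without 96h replicate 1 and 442 of 17504 without 120h replicate 1. With the replicate number as a block, 10 genes were called higher at their peak, 13 lower at 96h and 0 at 120h against 72h. Of all 15587 genes, that fit called 159 higher at 32h and 294 at 48h than at 4h. It called 1616 lower at 96h than at 32h and 1551 lower than at 48h. The main fit did not treat libraries of one number as paired. Of 84 same-numbered pairs of libraries, 23 had deviations that correlated over 0.1. The median correlation was -0.014 for these pairs and 0.028 for pairs of different number, and 8 of 24 libraries correlated best with their own number. Such correlations cannot show whether libraries of one number shared an origin.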

Other observations

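The 221 genes that passed the rule but ranked below the 150 kept were also divided between libraries of one time. Their peak was at 48h for 146 genes, at 32h for 73 and at 24h for 2. Of the 146, 66 were highest in 48h replicate 1, 69 in 48h replicate 3, 10 in 48h replicate 2 and 1 in 72h replicate 3. Of the 73, 55 were highest in 32h replicate 3. The median level of the 221 genes was 11.9, 0 and 6.17 units in 48h replicates 1, 2 and 3 and 0, 0 and 9.25 units in 72h replicates 1, 2 and 3, the order of libraries seen in the third set at these times. At 24h the order was another, with 8.31, 3.18 and 0 units in replicates 1, 2 and 3 for the 221 genes, beside 1.64, 5.81 and 0 units for the third set.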
